A study of Rattus norvegicus with 12 samples.

Results

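The kidney 7 days after ischemia-reperfusion injury (IRI) was compared with the kidney of sham-operated rats killed at the same day after their operation, over all probes that are not controls. This comparison used 8 of the 12 arrays of the series, 4 from injured and 4 from sham rats, each array being 1 rat. All rats were females of the inbred strain F344, 10 weeks old, and the tissue was the left kidney taken whole. The labels call the operations sham operation and ischemia reperfusion injury, and no label gives how long the blood supply was cut. Another group of 4 injured rats was killed at day 3, and its values stand beside those of day 7 where they place a gene on the course of repair. The series is about adaptive and maladaptive repair of renal tubules, and the question here is what had not returned to the sham level, or had newly left it, at day 7.

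Loss of blood flow harms above all the proximal tubule, the segment that takes back most of the filtered glucose, amino acids and phosphate and burns fatty acids to do so. Surviving tubule cells lose their specialised transporters and enzymes, switch on injury and embryonic genes, divide and then regain their mature state. Where this last step fails, injured tubule cells, macrophages and matrix-forming fibroblasts persist, which is what the term maladaptive repair refers to.

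RNA was measured on an array of 1 colour, where a brighter spot means more of the RNA it binds. Levels are log2 signals after subtracting that array's 75th percentile, differences are log2 fold changes with their standard error (SE), and adjusted p-values are from limma over 18510 tested genes. Before this scaling the 75th percentile was 502 ± 60.8 intensity units at day 7 and 328 ± 72.6 in sham (SD, n = 4 each), a ratio of 1.53 (exact permutation test, two-sided, p = 0.0286, which is as low as groups of 4 allow). No label gives the mass of RNA put on an array, so every change is relative to that percentile. Between 67.1% and 76.2% of spots stood well above background at day 7 and between 65.0% and 76.0% in sham. Sham replicate 3 had the lowest of these shares and the lowest percentile (224.7), and the 100 brightest probes carried 33.4% of its signal, against 26.1% to 27.9% in the other sham arrays. The arrays lay on 3 slides that each held all groups, and the only statement on replicates is that they are separate samples.

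At day 7, 3485 of 18510 genes (18.8%) differed from sham at an adjusted p under 0.05, of which 1520 (8.21%) were higher and 1965 (10.6%) lower. At least 2-fold differences were found for 1361 of them (7.35%), 673 higher and 688 lower. In 3994 genes (21.6%) the 4 day 7 arrays did not overlap the 4 sham arrays. The median difference over all genes was -0.07, with quartiles of -0.42 and 0.29. With the normexp background correction on all spots 91 genes passed, 81.3% of them higher. When spots dimmer than the background around them were left out of it (normexp without low spots), 3511 passed. Fitting only the sham and day 7 arrays gave 2087. Without sham replicate 3 the count was 2856, and it fell to 2042 without day 7 replicate 3 and to 2224 without day 7 replicate 1. Of the called genes 43.6% were higher, against 55.7% with quantile normalization, 55.3% in the authors' value table and 78.0% with arrays scaled to their total signal. Under that last scaling the median gene stood at 0.17. At an unadjusted p under 0.05 the comparison with sham had 6271 genes. Against day 3, 5815 genes (31.4%) differed, 3332 (18.0%) higher and 2483 (13.4%) lower at day 7. Counts within gene lists below are to be read beside the shares of all genes against sham, 8.21% higher and 10.6% lower.

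Genes of the injured tubule were above sham: 15 of 26 tested members of the tubular injury list rose and none fell, against the 8.21% of all genes that rose. The median member was 1.03 above sham on the log2 scale, and 11 members were lower than at day 3 while none were higher. The increases included a secreted matrix protein, a membrane marker of damaged proximal tubule, acute phase proteins and calcium-binding S100 proteins. Genes of the dedifferentiated and regenerating tubule rose in 8 of 28 cases with none lower, at a median of 0.78, which turned to -0.03 with normexp on all spots.

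Spp1 (probe at chr14:6422382-6422441 in build rn4) encodes osteopontin, a secreted protein that binds integrins and is made by damaged tubules. Its levels in sham replicates 1 to 4 were -3.11, -3.33, -4.16 and -3.45, and those at day 7 were 4.04, 3.67, 4.24 and 2.32. The lowest injured rat thus stood far above the highest sham rat, and the log2 fold change of 7.08 ± 0.37 SE (adjusted p = 4.26e-06) was the highest of all named genes. Day 3 levels averaged 3.78 ± 0.21 (SD, n = 4), and the difference of day 7 from day 3 was -0.22 (adjusted p = 0.672).

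Havcr1 (chr10:31857202-31857261, rn4) encodes KIM-1, a receptor by which injured proximal tubule cells take up dead cells. Levels were -2.39, -2.54, -2.01 and -2.44 in sham and 1.44, -0.04, 1.30 and -1.93 at day 7. Replicates 1 and 3 of day 7 were high, replicate 2 was between, and replicate 4 lay just above the sham range. The log2 fold change was 2.53 ± 0.59 SE (adjusted p = 0.0136), and 3.24 without day 7 replicate 4. Havcr1 had been at 4.06 ± 0.48 (SD, n = 4) at day 3 and was 3.87 lower at day 7 on the log2 scale (-3.87, adjusted p = 0.00141), in contrast to the -0.22 of Spp1.

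Fgb (chr2:174768230-174768289, rn4) encodes the beta chain of fibrinogen, the clotting protein. Sham levels were -1.88, -2.32, -4.41 and -1.08, and day 7 levels were 2.35, 0.97, 2.57 and 1.17, so all injured rats lay above all sham rats. The log2 fold change was 4.19 ± 0.59 SE (adjusted p = 0.00123), and 3.53 without the low sham replicate 3. Ubd (chr20:1476014-1476073, rn4) encodes FAT10, a ubiquitin-like protein induced by tumour necrosis factor and interferon gamma. Its levels were -3.16, -4.06, -3.07 and -3.31 in sham, with only 2 of the 4 arrays well above background, and 1.71, -0.04, 2.34 and 1.05 at day 7. The groups were again apart, by 4.67 ± 0.43 SE (adjusted p = 0.00012). Neither gene had moved detectably from day 3, with differences of -0.58 (adjusted p = 0.469) for Fgb and -0.64 (adjusted p = 0.26) for Ubd.

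The promoters of 4 genes with large changes, Rbp4 among them, are shown because they hold a binding motif of factors known in this tissue. The letters are the 250 bases before the start of the gene from RefSeq on build GRCr8, 5′ to 3′ on the strand of the gene, with the motif in capitals. HNF1 factors drive proximal tubule genes, and AP-1 is the dimer of Fos and Jun proteins that responds to stress.
Havcr1, chr10:31629528-31629777, plus strand, HNF1 motif: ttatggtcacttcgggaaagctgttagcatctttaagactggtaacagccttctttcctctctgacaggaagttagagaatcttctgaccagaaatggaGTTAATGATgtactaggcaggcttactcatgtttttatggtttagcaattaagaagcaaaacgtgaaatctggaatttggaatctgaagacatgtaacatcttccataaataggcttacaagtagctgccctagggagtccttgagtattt
Ubd, chr20:1392686-1392935, minus strand, HNF1 motif: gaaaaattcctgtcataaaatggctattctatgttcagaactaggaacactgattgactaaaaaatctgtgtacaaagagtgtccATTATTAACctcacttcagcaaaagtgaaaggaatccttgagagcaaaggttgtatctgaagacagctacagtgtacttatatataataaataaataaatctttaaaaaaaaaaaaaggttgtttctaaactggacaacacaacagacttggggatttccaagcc
Fgb, chr2:170700876-170701125, minus strand, AP-1 motif: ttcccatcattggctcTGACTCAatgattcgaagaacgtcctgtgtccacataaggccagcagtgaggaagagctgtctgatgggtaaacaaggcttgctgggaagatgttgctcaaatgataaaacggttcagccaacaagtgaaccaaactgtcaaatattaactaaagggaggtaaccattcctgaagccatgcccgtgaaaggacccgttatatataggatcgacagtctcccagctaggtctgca
Rbp4, chr1:245313552-245313801, minus strand, AP-1 motif: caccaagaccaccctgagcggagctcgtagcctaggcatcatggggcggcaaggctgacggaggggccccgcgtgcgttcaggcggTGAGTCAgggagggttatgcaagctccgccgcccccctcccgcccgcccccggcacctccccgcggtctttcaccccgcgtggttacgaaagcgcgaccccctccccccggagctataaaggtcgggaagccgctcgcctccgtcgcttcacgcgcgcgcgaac

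Counted from the gene start, the motif begins at base -151 in Havcr1, at -165 in Ubd, at -234 in Fgb and at -164 in Rbp4. Windows from 250 bases before to 50 after the start were searched on both strands for GTTAATNAT (HNF1) and TGANTCA (AP-1). The HNF1 letters stood in 206 of 27457 promoters (0.75%) and in 0.448% of those of tested genes. They stood in 0.463% of the 864 promoters of genes higher at day 7 and in 0.58% of the 1035 of genes lower. For genes at least 2-fold higher the share was 0.93% (4 of 430), and for those at least 2-fold lower 0.454%. The AP-1 letters stood in 7.33% of all promoters, in 5.79% of those of higher genes and in 5.41% of those of lower genes, against 5.16% of the 10262 tested genes with a promoter. The shares of called genes lay close to those of tested genes, and the 0.93% rests on 4 promoters. A match describes the window without showing that a factor binds there.

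Other injury genes were intermediate between sham and day 3. Anxa2, a membrane-binding annexin, had sham levels of -0.18, -0.36, -0.52 and -0.07 and day 7 levels of 2.64, 1.27, 2.43 and 1.25. All injured arrays were above all sham arrays, with a log2 fold change of 2.18 ± 0.32 SE (adjusted p = 0.00137), and the gene was 1.94 lower than at day 3 (-1.94, adjusted p = 0.00182). Tnfrsf12a, the receptor for the cytokine TWEAK, rose by 2.06 ± 0.35 SE (adjusted p = 0.00296) and was also below day 3 (-2.15, adjusted p = 0.00177). Clu, the secreted chaperone clusterin, had risen by 3.63 ± 0.45 SE (adjusted p = 0.000683) and did not pass against day 3 (-1.11, adjusted p = 0.0779). Sox9, a transcription factor of regenerating tubule cells, stood at -3.21, -3.79, -1.25 and -3.04 in sham and at -0.58, -1.48, 0.50 and -0.78 at day 7. Sham replicate 3 lay above day 7 replicate 2, so the groups overlapped, while the increase of 2.24 ± 0.51 SE passed (adjusted p = 0.012).

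Lcn2, the iron-trapping protein lipocalin 2, was the member nearest to the threshold, at 0.96 ± 0.29 SE (adjusted p = 0.0368). Day 7 replicates 1 and 3 stood at -0.50 and -0.19 and replicates 2 and 4 at -1.58 and -1.5, with sham between -2.05 and -1.8. The call was lost with normexp without low spots (0.63, adjusted p = 0.0508), and held only when day 7 replicate 2 or 4 was the array left out, and the adjusted p was 0.0534 to 0.0999 when any of the other 6 was. Vim, the intermediate filament vimentin, differed by 1.07 ± 0.45 SE and did not pass (adjusted p = 0.116), with day 7 replicate 4 (-0.48) inside the sham range. Without that rat Vim was called at 1.51 (adjusted p = 0.0188). Prom1, a surface protein of progenitor-like tubule cells, differed by 0.55 and did not pass (adjusted p = 0.242), and it too was called without day 7 replicate 4, at 0.86 (adjusted p = 0.0417).

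**Figure D1:**
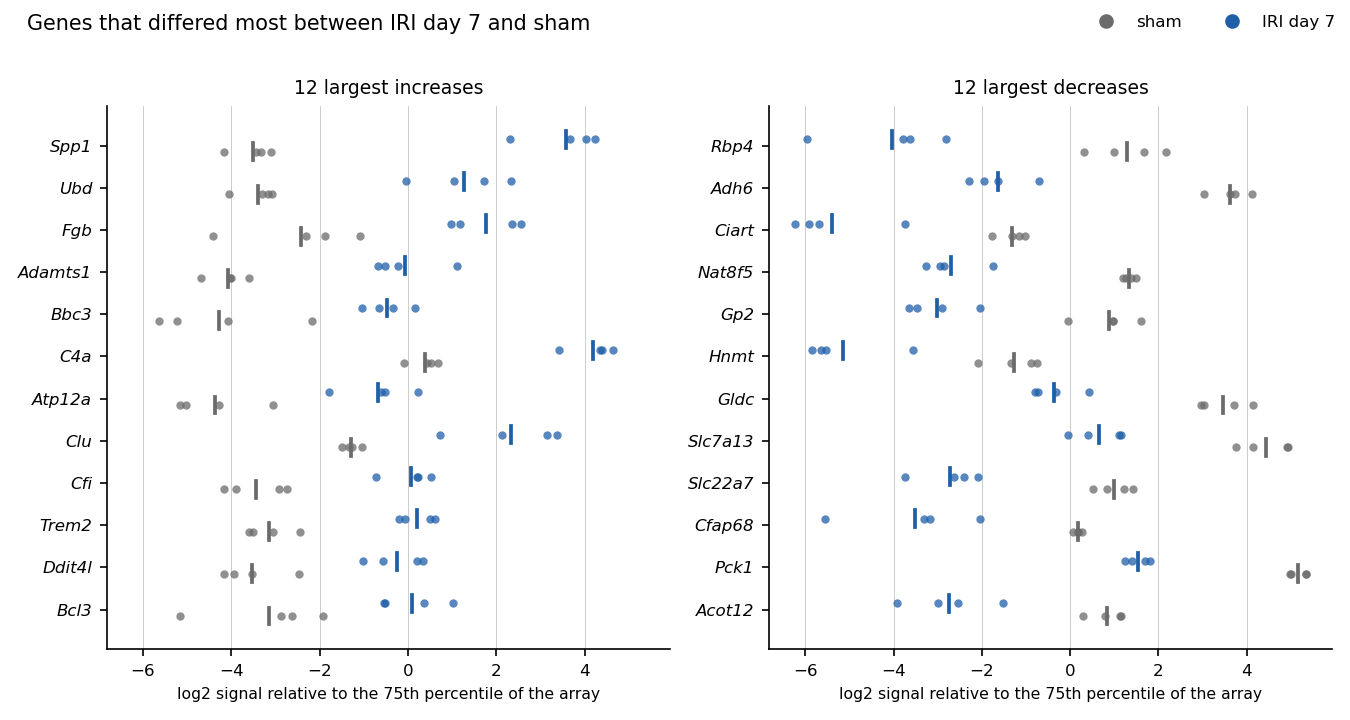
Levels of the 12 named genes with the largest increase (left) and decrease (right) at day 7. Only called genes well above background on some array of each group could enter, which left out genes such as Birc3. The horizontal axis is log2 signal less the array's 75th percentile. Grey points are the 4 sham arrays, blue points the 4 day 7 arrays and vertical ticks the group means; the groups do not overlap in any of the 24 genes, which the choice of genes required, and Spp1 and Rbp4 are the widest apart.

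The sizes of these changes depend on how dim signals are treated. With normexp without low spots, which adds an offset of 50 intensity units, 64 of the 151 called genes named here lay nearer to 0 by over 1.5-fold, none lay further from it by as much, and 9 lost their call. Spp1 was then at 5.29, Ubd at 3.08, Fgb at 2.97, Adamts1 at 2.08, Bbc3 at 1.68 and Atp12a at 1.6, and Havcr1 at 1.85. Among the decreases Adh6 was at -4.56, Rbp4 at -3.51 and Hnmt at -1.75, so Adh6 lay further from 0 than Rbp4. Fitting only the 2 groups ended 17 of the 151 calls, at adjusted p of 0.0526 to 0.0991.

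Proximal tubule genes were the main group below sham. Of 35 metabolic genes of this segment 15 were lower and none higher, against 10.6% of all genes lower, with a median of -1.1. Of 32 transport genes 11 were lower and 1 higher, with a median of -0.77. Most had begun to return, since 28 of the 35 metabolic and 17 of the 32 transport genes were higher than at day 3 and 1 of each list was lower. In whole kidney, fewer cells of a type and less RNA per cell cannot be told apart. The summed level of the 32 transport genes, relative to the 75th percentile on a linear scale, was 192 to 337 at day 7 and 471 to 507 in sham.

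Rbp4 (chr1:242443795-242443854, rn4), the plasma carrier of retinol, had sham levels of 2.18, 1.68, 0.32 and 1.0 and day 7 levels of -2.81, -3.79, -5.96 and -3.62. No injured rat came near the sham range, and the log2 fold change of -5.34 ± 0.62 SE (adjusted p = 0.00049) was the largest decrease of a named gene under the main setting. Only 2 of the 4 day 7 arrays were well above background. The value was -4.70 without day 7 replicate 3. Adh6 (chr2:235931239-235931298, rn4), an alcohol dehydrogenase, stood at 4.11, 3.63, 3.04 and 3.73 in sham and at -0.70, -1.63, -2.28 and -1.96 at day 7. That is a difference of -5.27 ± 0.77 SE (adjusted p = 0.00142), with day 7 above the day 3 level by 2.81 (adjusted p = 0.0181). Probes of such enzyme families can also bind the RNA of a close relative, which holds for Adh6, Nat8f5 and Cyp4a1 below.

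Pck1 (chr3:164017597-164017656, rn4), an enzyme of glucose synthesis, read 5.34, 5.35, 4.99 and 4.97 in sham and 1.8, 1.41, 1.24 and 1.69 at day 7. The 4 injured rats were close to each other and all well below sham, at -3.63 ± 0.45 SE (adjusted p = 0.000684), yet 2.66 above day 3 (adjusted p = 0.00219). Gldc, which splits glycine, fell by 3.82 on the log2 scale (SE 0.34, adjusted p = 0.000113), and its difference from day 3 did not pass (-0.52, adjusted p = 0.262). Slc7a13, an amino acid carrier of the last proximal segment, was likewise far below sham (-3.78 ± 0.58 SE, adjusted p = 0.00188) and not detectably above day 3 (0.57, adjusted p = 0.466). Slc22a7, an organic anion carrier, was at -3.72 ± 0.40 SE (adjusted p = 0.000319). Nat8f5, an acetyltransferase, was at -4.04 ± 0.52 SE (adjusted p = 0.000778), and Hnmt, which inactivates histamine, at -3.87 ± 0.47 SE (adjusted p = 0.000778). Only 1 day 7 array of Hnmt was well above background. Hnmt lost its call in the authors' value table (-3.79, adjusted p = 0.0549).

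Several other genes of the segment did not pass on the probe used, and 1 was higher. Slc34a1, the main phosphate carrier, read 5.93, 5.86, 6.01 and 6.10 in sham and 4.76, 5.39, 4.74 and 5.93 at day 7. Replicate 4 lay in the sham range and replicates 1 and 3 were lowest, and the difference of -0.77 ± 0.52 SE did not pass (adjusted p = 0.326). Slc34a1 was 3.06 above day 3 (adjusted p = 0.0022). Slc5a2, the glucose carrier of the early proximal tubule, was not called either, at 0.70 (adjusted p = 0.177). Fbp1 and G6pc1, which act beside Pck1 in glucose synthesis, were at -1.13 (adjusted p = 0.0642) and -1.47 (adjusted p = 0.0682), with no overlap between the groups in either. Both passed when only the 2 groups were fitted (adjusted p = 0.0374 and 0.0278) and with normexp without low spots (adjusted p = 0.0335 and 0.029). The other probe of G6pc1 was called, at -1.59 (adjusted p = 0.0323), as was the mean of its probes (-1.53, adjusted p = 0.0451). Slc2a2, the glucose carrier of the basal membrane, was the 1 transport gene that was higher, at 1.02 ± 0.25 SE (adjusted p = 0.0164), and the call was lost without day 7 replicate 3 (0.86, adjusted p = 0.0511).

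Slc22a6, the organic anion carrier that clears many drugs, had levels of 6.23, 6.25, 6.46 and 6.37 in sham and 4.17, 5.07, 4.04 and 5.26 at day 7. The groups did not overlap, and the decrease of -1.69 ± 0.50 SE passed narrowly (adjusted p = 0.0355). The call held only when day 7 replicate 2 or 4 was left out, and it was lost with quantile normalization (-1.35, adjusted p = 0.0746) and total signal scaling (-1.45, adjusted p = 0.0538). Mep1a, a brush border protease, fell by 2.18 (SE 0.34, adjusted p = 0.00206), and Cth, which makes cysteine, by 1.95 (SE 0.30, adjusted p = 0.00188).

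Of 11 transcription factors that maintain the segment 4 were lower and none higher, with a median of -0.43. Ppara, the fatty acid sensor, fell from 0.64, 0.77, 0.50 and 0.17 in sham to -1.93, -1.14, -1.60 and -1.1 at day 7. All 4 injured rats were below all sham rats, by -1.96 ± 0.26 SE (adjusted p = 0.000885). Hnf4a, a master regulator of proximal tubule maturation, was at -0.95 ± 0.28 SE (adjusted p = 0.0359). Its call held only without sham replicate 4 or day 7 replicate 4, and it was lost under total signal scaling (-0.71, adjusted p = 0.0846). The bile acid receptor Nr1h4 was at -0.95 (adjusted p = 0.0283) and the xenobiotic receptor Nr1i2 at -0.74 (adjusted p = 0.0485). Nr1h4 lost its call without sham replicate 1 or 2 or day 7 replicate 1 or 3, and Nr1i2 kept it only without day 7 replicate 1. Both were lost under total signal scaling (-0.71, adjusted p = 0.0671, and -0.5, adjusted p = 0.151), and Nr1i2 also with quantile normalization (-0.66, adjusted p = 0.064).

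**Figure D2:**
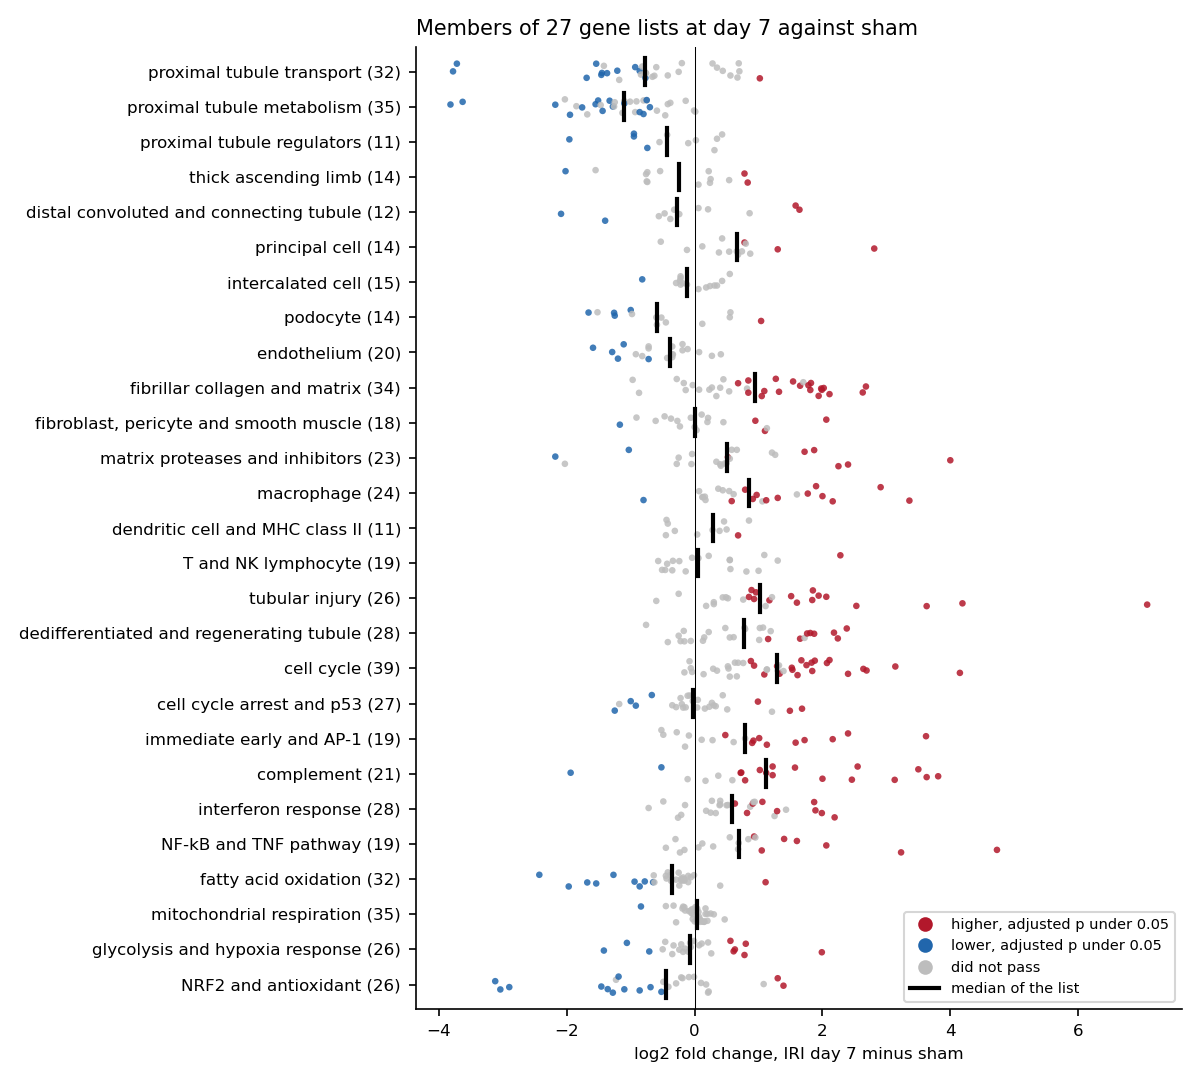
Log2 fold change of day 7 minus sham (horizontal axis) for the tested members of 27 gene lists, with the number of members in parentheses. Red points passed as higher and blue as lower at an adjusted p under 0.05, grey points did not pass, black ticks are list medians, and genes without a sham array well above background, such as Cks2, are drawn at their fitted value; the proximal tubule medians (-0.77 and -1.1) lie left of 0 and those of tubular injury (1.03), complement (1.12) and cell cycle (1.29) right of it.

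Fatty acid oxidation, the fuel pathway of the proximal tubule, was lower in 9 of 32 genes and higher in 1, with a median of -0.36. Of the lower members 6 belong to the peroxisome or to omega-oxidation and 3 to mitochondria. Ehhadh, the bifunctional enzyme of peroxisomal oxidation, read 3.13, 3.31, 2.40 and 2.38 in sham and -0.21, 0.65, 0.33 and 0.74 at day 7. The groups were apart by -2.43 ± 0.41 SE (adjusted p = 0.00299). Pex11a, which divides peroxisomes, was at -1.97 ± 0.21 SE (adjusted p = 0.000309) and at the same level as at day 3 within the error (-0.06, adjusted p = 0.849). Cyp4a1, which hydroxylates fatty acids, was at -1.54 (adjusted p = 0.00456).

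Other mitochondrial members did not pass. Cpt1a, the gate for fatty acids into mitochondria, differed by -0.16 (adjusted p = 0.542) and Acadm, the medium-chain dehydrogenase, by -0.24 (adjusted p = 0.527). The member that rose was Fabp3, a fatty acid carrier of muscle and distal nephron, with 0.85, 0.72, 0.44 and 0.55 in sham and 1.85, 1.78, 1.85 and 1.52 at day 7. Fabp3 was thus higher in all injured rats, by 1.11 ± 0.15 SE (adjusted p = 0.00117). It was also 1.13 above day 3 (adjusted p = 0.000816).

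Of 35 genes of mitochondrial respiration only Ogdh, of the citric acid cycle, passed, at -0.84 ± 0.15 SE (adjusted p = 0.00427), and its other probe did not (-0.15, adjusted p = 0.558). Their median was 0.03, and 17 were above day 3. Sdha, of complex II, stood at 5.42, 5.71, 5.49 and 5.70 in sham and 5.41, 5.67, 5.42 and 5.59 at day 7, so the rats of both groups lay together. Of 26 genes of glycolysis and the hypoxia response 6 were higher and 3 lower, Hk2 and the hypoxia targets Vegfa and Bnip3. Pfkp, the platelet form of phosphofructokinase, rose by 1.99 ± 0.24 SE (adjusted p = 0.000553), Pkm, pyruvate kinase, by 0.80 (adjusted p = 0.0118) on 1 of 3 probes, and Hk1, hexokinase 1, by 0.78 (adjusted p = 0.0166). Hexokinase 2 went the other way, with Hk2 at -1.42 ± 0.28 SE (adjusted p = 0.00662). Vegfa, the vessel growth factor that tubules secrete, was at -1.06 ± 0.24 SE (adjusted p = 0.0117) and had returned part of the way from day 3 (1.26 above it, adjusted p = 0.00366). Of its other 3 probes 1 did not pass (-0.67, adjusted p = 0.0639).

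NRF2 is the transcription factor that answers oxidants by raising glutathione synthesis and detoxification. Of its 26 tested genes 11 were lower than sham and 2 higher, with a median of -0.45. Against day 3, whatever their call against sham, 8 of the 26 were lower and 2 higher. Gclc and Gclm encode the subunits of the enzyme that starts glutathione synthesis. Gclc read 2.41, 2.48, 1.5 and 2.44 in sham and -0.58, -0.04, -1.47 and -1.25 at day 7, a difference of -3.04 ± 0.34 SE (adjusted p = 0.000364). Its level at day 3 was -1.0 ± 0.44 (SD, n = 4), from which day 7 did not differ (0.16, adjusted p = 0.738).

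Gclm took another path. It read -1.36, -0.59, -2.34 and -1.19 in sham and -3.33, -3.63, -4.46 and -5.65 at day 7, with 2 of the 4 day 7 arrays well above background, while day 3 averaged -1.79 ± 0.22 (SD, n = 4). Day 7 was the lowest of the 3 groups, at -2.90 ± 0.47 SE against sham (adjusted p = 0.0024) and -2.47 against day 3 (adjusted p = 0.0035). Nqo1, a quinone reductase, was also below both, at -1.46 (adjusted p = 0.0142) and -1.39 (adjusted p = 0.0125), and only 1 of its day 7 arrays was well above background. Osgin1, a target of NRF2, read 4.17, 3.66, 3.20 and 3.63 in sham and 0.26, 0.88, 0.12 and 0.92 at day 7, which is -3.12 ± 0.24 SE (adjusted p = 7.15e-05). The members that rose were Srxn1, which repairs peroxiredoxins (1.39 ± 0.24 SE, adjusted p = 0.00313), and Gpx2, a glutathione peroxidase of epithelia (1.30 ± 0.30 SE, adjusted p = 0.0131). Hmox1, which breaks down haem, was not called (0.18, adjusted p = 0.51). The sum of the proximal tubule transport genes was also below sham at day 7. Against day 3 the median transport gene stood at 1.04 and the median gene of the NRF2 list at -0.24. The part of the proximal tubule in the result was not tested.

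The segments after the proximal tubule lay nearer to sham by their median gene, though not all did by their summed level. The median was -0.24 in the thick ascending limb, -0.28 in the distal convoluted and connecting tubule and -0.12 in intercalated cells. For proximal tubule transport it was -0.77. Of 14 thick ascending limb genes 2 were higher and 1 lower, beside 8.21% and 10.6% of all genes, and 10 were above day 3. Of 12 genes of the distal convoluted and connecting tubule 2 were higher and 2 lower, and of 15 intercalated cell genes 1 was lower. Of 14 genes of principal cells, the sodium- and water-absorbing cells of the collecting duct, 3 were higher and none lower, with a median of 0.67. The summed level of these 14 was 48.1 to 61.1 at day 7 and 25.7 to 41.8 in sham. The sum of the thick ascending limb genes stayed below sham, at 54.3 to 74.1 against 89.6 to 108. So did that of the distal convoluted and connecting tubule, at 47.2 to 69.1 against 78.9 to 111. For intercalated cells it was 62.5 to 73.1 at day 7 and 57.3 to 78.3 in sham.

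Umod (chr1:177729224-177729283, rn4) encodes uromodulin, the main protein of urine. It read 5.49, 5.22, 5.57 and 5.30 in sham and 3.80, 3.69, 3.57 and 4.32 at day 7. All injured rats were below all sham rats, but with a spread shared by all groups the difference of -1.55 ± 0.50 SE did not pass (adjusted p = 0.0509). It passed when only the sham and day 7 arrays were fitted (adjusted p = 0.00428). The day 3 arrays, left out of that fit, were more scattered (-0.43 ± 1.34, SD, n = 4). Gp2 (chr1:177714482-177714541, rn4), a relative of uromodulin, fell from -0.04, 0.98, 0.97 and 1.61 in sham to -3.65, -3.46, -2.91 and -2.05, a difference of -3.90 ± 0.41 SE (adjusted p = 0.000252). Egf, a growth factor made by distal segments, read 3.21, 3.65, 3.23 and 3.11 in sham and 0.43, 1.71, 0.87 and 2.08 at day 7. It stayed below sham in every rat (-2.02 ± 0.36 SE, adjusted p = 0.00367) although 3.62 above day 3 (adjusted p = 0.000138).

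Some genes of these segments went past the sham level after a fall at day 3. Calb1 (chr5:30475783-30475991, rn4) encodes calbindin, the calcium carrier of the distal tubule. It read 1.71, 1.19, 1.24 and 1.59 in sham and 2.86, 3.22, 2.86 and 3.09 at day 7, all above sham, by 1.58 ± 0.35 SE (adjusted p = 0.0104). At day 3 it had averaged -3.85 ± 0.88 (SD, n = 4), so day 7 was higher by 6.86 (adjusted p = 1.51e-06). Hsd11b2, which protects the aldosterone receptor from cortisol-like hormones, read 2.69, 2.03, 2.68 and 2.84 in sham and 4.05, 3.83, 3.68 and 3.88 at day 7. The increase was 1.30 ± 0.21 SE (adjusted p = 0.00232), against a day 3 mean of 1.25 ± 0.32 (SD, n = 4).

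Kcnj1, the potassium channel ROMK, was at 0.83 ± 0.22 SE (adjusted p = 0.0243), a call lost without sham replicate 2 (adjusted p = 0.0582) or day 7 replicate 1 (adjusted p = 0.0699), and not made on 1 of its 3 probes (0.48, adjusted p = 0.41). Sostdc1, a secreted BMP and Wnt antagonist of the distal tubule, was at 0.78 ± 0.18 SE (adjusted p = 0.0143). S100g, the other calcium carrier of the distal tubule, went against Calb1 and was at -2.09 ± 0.47 SE (adjusted p = 0.0112). Trpv6, a calcium channel of the apical membrane, was at 1.64 ± 0.40 SE (adjusted p = 0.0156) with 1 of 4 sham arrays well above background, and its call was lost with normexp without low spots (0.42, adjusted p = 0.155). Klk1, tissue kallikrein, was at -1.40 (adjusted p = 0.0392), and kept its call only without sham replicate 2 or day 7 replicate 4 and under neither total signal scaling (-1.17, adjusted p = 0.068) nor quantile normalization (-1.18, adjusted p = 0.0641). Tfap2b, a transcription factor of the distal nephron, was at 0.78 (adjusted p = 0.0322), and kept its call only without sham replicate 1 or 3 or day 7 replicate 1.

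Aqp4 and Atp12a were higher at day 7 than in either other group. Aqp4 (chr18:6626431-6626490, rn4), the water channel of the basal side of principal cells, read -2.51, -3.01, -3.21 and -2.17 in sham and 1.15, -0.09, -0.24 and -0.48 at day 7. The difference was 2.81 ± 0.57 SE against sham (adjusted p = 0.00726) and 3.21 against day 3 (adjusted p = 0.00277). The other probes of Aqp4 gave 2.11 (adjusted p = 0.0259) and 0.82 (adjusted p = 0.0747) against sham. Atp12a (chr15:35321392-35321451, rn4), the colonic type of proton-potassium pump, read -3.06, -5.02, -5.17 and -4.27 in sham, with 1 array well above background, and 0.23, -0.60, -1.78 and -0.53 at day 7. All 4 injured rats stood above both other groups, by 3.71 ± 0.54 SE against sham (adjusted p = 0.00137) and 4.50 against day 3 (adjusted p = 0.000432). Aqp2, the water channel under vasopressin control, was not called (0.74, adjusted p = 0.0844), though its groups did not overlap, and it passed under total signal scaling (0.97, adjusted p = 0.0247).

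Intercalated cells, which move acid and base, had 1 call, the anion exchanger Slc4a1 at -0.82 (adjusted p = 0.0435), kept only without sham replicate 2 or day 7 replicate 2 and lost with quantile normalization (-0.76, adjusted p = 0.0674) or total signal scaling (-0.58, adjusted p = 0.134). Slc4a1 is a red cell protein too. Foxi1, the factor that specifies these cells, differed by 0.35 (adjusted p = 0.453) and Slc26a4, pendrin, by -0.23 (adjusted p = 0.662). Slc12a3, the thiazide-sensitive salt carrier, read 3.41, 3.84, 3.47 and 3.16 in sham and 3.53, 3.86, 3.76 and 3.58 at day 7. Its groups overlapped (0.21, adjusted p = 0.496), while day 7 was 2.5 above day 3 (adjusted p = 5.19e-05). Slc12a1, the loop diuretic target, was at -0.74 (adjusted p = 0.0793), and Kl, the anti-ageing protein klotho, at -0.61 (adjusted p = 0.0533). Kl was called without sham replicate 4 (-0.76, adjusted p = 0.0227).

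**Figure D3:**
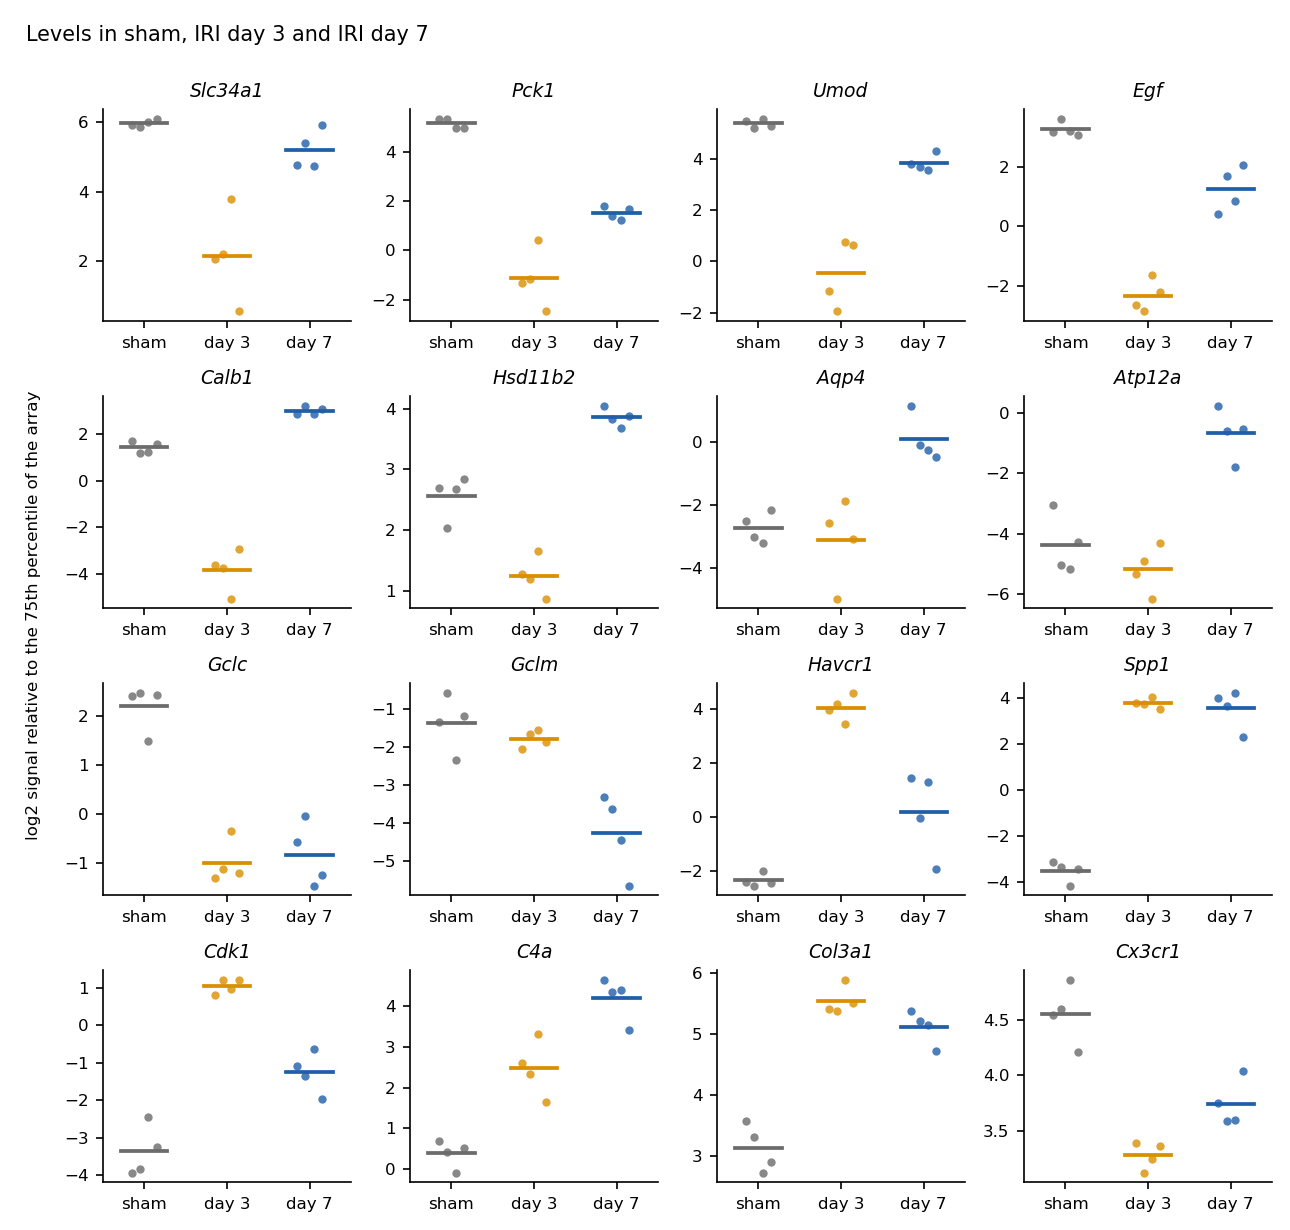
Levels of 16 genes in the 4 arrays of sham, day 3 and day 7; each vertical axis is log2 signal less the array's 75th percentile with a range of its own, points are arrays and bars are group means. Calb1 goes from 1.43 in sham through -3.85 at day 3 to 3.01 at day 7, Gclm is lowest at day 7, and Spp1 is as high at day 7 as at day 3.

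Complement, the cascade of plasma proteins that tags and lyses cells, was the list with the largest share of higher members: 15 of 21 rose and 2 fell, with a median of 1.12. Of these genes 5 were above and 2 below day 3. C4a (chr20:4315816-4315875, rn4) encodes the fourth component, and its probe cannot be told from the near-identical copy C4b. It read 0.68, 0.42, -0.09 and 0.53 in sham and 4.64, 4.35, 4.39 and 3.41 at day 7. The increase of 3.81 ± 0.35 SE (adjusted p = 0.000118) went beyond day 3 by 1.72 (adjusted p = 0.0048). C3 (position on an unplaced sequence), the central component, read -1.87, -2.24, -2.71 and -1.55 in sham and 1.38, -0.31, 1.28 and -0.53 at day 7, which is 2.55 ± 0.43 SE (adjusted p = 0.00286).

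Regulators moved both ways. Cfi, the protease that inactivates C3b and C4b, read -2.75, -2.93, -3.90 and -4.17 in sham and 0.22, 0.21, 0.52 and -0.72 at day 7, a difference of 3.50 ± 0.39 SE (adjusted p = 0.000368). Cfd, the protease of the alternative pathway that fat tissue also makes, rose by 3.13 ± 0.27 SE (adjusted p = 0.000102). Cd55, which protects cell surfaces from complement, fell by 1.94 (SE 0.50, adjusted p = 0.0208), with 1 day 7 array well above background and the call lost without sham replicate 1 (-1.73, adjusted p = 0.0581). C5 was not called (-0.11, adjusted p = 0.84), nor was C1qb, a C1q chain of macrophages (0.17, adjusted p = 0.633). Cfb was not called (0.59, adjusted p = 0.15), but was without day 7 replicate 2 (0.86, adjusted p = 0.0263). In the adipose list, which shares Cfd, 1 of 6 genes rose and 1, Pnpla2, fell, and its summed level was 2.24 to 3.00 at day 7 and 1.89 to 2.72 in sham. The part of fat tissue in the result for Cfd was not tested.

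Of 19 genes of the NF-kB and TNF pathway 7 rose and none fell, with a median of 0.69, and of 28 interferon response genes 9 rose and none fell, with a median of 0.58. Birc3, an inhibitor of apoptosis, was well above background on all 4 day 7 arrays (-0.80, -1.65, 0.26 and -1.87) and on no sham array, and was at least 7.72-fold higher. Such bounds set each array of the dim group at its own value or, if higher, at the lowest signal well above background there. Bcl3, a nuclear partner of NF-kB, read -1.93, -2.87, -5.17 and -2.63 in sham and 0.37, -0.54, 1.02 and -0.52 at day 7. The groups were apart by 3.23 ± 0.59 SE (adjusted p = 0.00427), or 2.56 without the low sham replicate 3. Icam1, the adhesion protein for leukocytes, rose by 1.60 ± 0.27 SE (adjusted p = 0.00305).

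Immunoproteasome genes, which shape peptides for class I presentation, were among the interferon genes that rose. Psmb9 read 0.08, 0.70, -0.41 and -0.16 in sham and 2.02, 1.44, 2.37 and 1.84 at day 7, all apart, by 1.87 ± 0.26 SE (adjusted p = 0.00122). Psmb8 rose by 1.89 ± 0.36 SE (adjusted p = 0.00527). Irf1, a factor that turns on interferon genes, rose by 1.99 ± 0.28 SE (adjusted p = 0.00117) on its brighter probe and did not pass on the other (0.36, adjusted p = 0.527). Nfkbia, an inhibitor that NF-kB itself turns on, was not called (-0.16, adjusted p = 0.595).

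Among 28 cytokine and chemokine genes 9 rose and 2 fell, and their median of 0.47 turned to -0.08 with normexp on all spots. Ccl6, a chemokine of macrophages, read -1.24, -1.72, -1.71 and -0.50 in sham and 0.81, 0.77, 0.42 and -0.13 at day 7, which is 1.76 ± 0.28 SE (adjusted p = 0.00234). Ccl2, which draws monocytes, was on no sham array and on 2 day 7 arrays well above background, and did not pass (adjusted p = 0.103). It was called without day 7 replicate 2 (adjusted p = 0.0274). Cxcl1, which draws neutrophils, was not called either (1.44, adjusted p = 0.25), and both chemokines were below day 3, by -3.64 (adjusted p = 0.00187) for Ccl2 and -4.25 (adjusted p = 0.00433) for Cxcl1.

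Macrophage markers rose in 12 of 24 cases and fell in 1, with a median of 0.85, or 0.74 with genes of dim sham signal at their bound. Their summed level was 75.2 to 101 at day 7 and 57.8 to 65.4 in sham, and 2 of the 24 were well above background on no sham array. Trem2, a lipid receptor of macrophages in damaged tissue, rose by 3.36 ± 0.30 SE (adjusted p = 0.000102). Gpnmb, a glycoprotein of the same cells, was above background on 3 of 4 day 7 arrays (-2.13, -2.87 and -2.30) but not on replicate 4 (-5.75), nor on any sham array, and was at least 1.63-fold higher. Lgals3, galectin 3, read 1.42, 0.79, 1.08 and 1.1 in sham and 3.86, 2.96, 3.36 and 2.87 at day 7, an increase of 2.16 ± 0.27 SE (adjusted p = 0.000684) in every rat.

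Cx3cr1 (chr8:125033728-125033787, rn4), the fractalkine receptor of macrophages that reside in the kidney, was the member that fell. It read 4.54, 4.60, 4.86 and 4.21 in sham and 3.75, 3.59, 3.60 and 4.04 at day 7. All injured rats were below all sham rats, by -0.80 ± 0.16 SE (adjusted p = 0.00725), and above day 3 by 0.47 (adjusted p = 0.0471). Csf1r, the growth factor receptor of all macrophages, was not called on its brighter probe (0.13, adjusted p = 0.75) and was higher on the other (0.77, adjusted p = 0.0467). Cd68, a lysosomal protein of these cells, read -2.30, -2.47, -5.22 and -2.36 in sham and -0.84, -1.62, -1.85 and -1.63 at day 7. It did not pass at 1.60 ± 0.55 SE (adjusted p = 0.0601), and without the low sham replicate 3 it passed at 0.89 (adjusted p = 0.0287). Cd68 also passed with normexp without low spots (0.59, adjusted p = 0.0216) and total signal scaling (1.84, adjusted p = 0.0353). The same held with slide or scan as a block (adjusted p = 0.0401 and 0.0457).

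Lysosome genes rose in 9 of 28 cases and fell in 2, beside 8.21% and 10.6% of all genes. Ctsd, a lysosomal protease, rose from 2.84, 2.66, 2.90 and 2.94 to 4.40, 4.07, 4.40 and 3.85, by 1.34 ± 0.19 SE (adjusted p = 0.00133). Grn, progranulin, rose by 1.1 ± 0.18 SE (adjusted p = 0.00244). Ctsk, a collagen-degrading cathepsin, rose by 1.91 ± 0.33 SE (adjusted p = 0.00314), with 1 sham array well above background and the call lost with normexp without low spots (0.46, adjusted p = 0.0519). The macrophage sum was also higher at day 7, and its part in these increases was not tested.

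Of 19 T and NK genes 1 rose and none fell, beside 8.21% and 10.6% of all genes. Their sum was 10.7 to 16.5 at day 7 and 11.9 to 18.2 in sham. The T cell receptor subunit Cd3e was well above background on no sham array and did not pass (adjusted p = 0.446). Of 7 B cell genes the adaptor Blnk rose (0.96 ± 0.19 SE, adjusted p = 0.0062). Of 11 dendritic cell and MHC class II genes RT1-Da rose (0.68, adjusted p = 0.026), kept only without sham replicate 4 or day 7 replicate 3 or 4. RT1-Ba did not pass (0.28, adjusted p = 0.265), nor did Cd74, the class II chaperone (-0.31, adjusted p = 0.144). The medians of the B cell and the class II lists changed sign with the background correction. Of 4 neutrophil genes 1 rose, Lcn2, and of 4 mast cell genes none passed, with the protease Mcpt1 at -0.13 (adjusted p = 0.888). Only 4 of 14 neutrophil and 4 of 10 mast cell genes were bright enough to be tested.

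Matrix genes rose in 19 of 34 cases and none fell, with a median of 0.95. No member was above day 3 and 4 were below it. Col3a1 (chr9:44317465-44317524, rn4), a chain of fibrillar collagen, read 3.57, 3.30, 2.72 and 2.90 in sham and 5.37, 5.21, 5.15 and 4.71 at day 7. All injured rats were above all sham rats, by 1.99 ± 0.21 SE (adjusted p = 0.000309), and did not differ from day 3 (-0.44, adjusted p = 0.137). Col1a1, of the main fibrillar collagen, rose by 1.94 ± 0.27 SE (adjusted p = 0.00117), with 4.16 on its dimmer probe. Col15a1, a basement membrane collagen, rose by 2.02 ± 0.24 SE (adjusted p = 0.000553).

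Fn1, fibronectin, was the matrix gene of those named that had begun to fall. It read 1.08, 0.64, 0.37 and 0.29 in sham and 2.99, 2.72, 3.13 and 1.46 at day 7, with replicate 4 nearest to sham. It was 1.98 ± 0.32 SE above sham (adjusted p = 0.00257) and 1.29 below day 3 (-1.29, adjusted p = 0.0128). Fbn1, of microfibrils, rose by 2.11 ± 0.39 SE (adjusted p = 0.00477). Eln, elastin, rose by 2.63 ± 0.32 SE (adjusted p = 0.000567) on 1 probe, while the other did not pass (-0.25, adjusted p = 0.206).

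Matrix proteases and their inhibitors rose in 6 of 23 cases and fell in 2, with a median of 0.5 that turned to -0.13 with normexp on all spots. Adamts1 (chr11:25434383-25434442, rn4), which cuts proteoglycans, read -4.03, -4.00, -4.69 and -3.59 in sham, with 2 arrays well above background, and -0.23, -0.68, 1.12 and -0.52 at day 7. The increase was 4.00 ± 0.35 SE (adjusted p = 0.000102), and the level was 1.33 below day 3 (-1.33, adjusted p = 0.0155). Mmp2, a gelatinase of fibroblasts, rose by 2.25 ± 0.26 SE (adjusted p = 0.000431). The inhibitors parted: Timp1 rose by 1.87 ± 0.31 SE (adjusted p = 0.00286), and Timp3 fell from 5.90, 5.70, 5.59 and 5.41 to 4.16, 5.01, 4.49 and 4.81, or -1.03 ± 0.19 SE (adjusted p = 0.00487).

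Of 18 fibroblast, pericyte and smooth muscle markers 3 were higher and 1 lower, beside 8.21% and 10.6% of all genes, with a median of 0.01. Their summed level was 25.4 to 26.2 at day 7 and 21.6 to 24.8 in sham. The platelet-derived growth factor receptors of fibroblasts and pericytes rose, Pdgfra by 1.1 ± 0.22 SE (adjusted p = 0.00723) and Pdgfrb by 0.95 ± 0.16 SE (adjusted p = 0.00299), as did S100a4 (2.06 ± 0.31 SE, adjusted p = 0.00168). Myh11, the myosin of smooth muscle, fell by 1.17 (adjusted p = 0.0259), with the call lost without sham replicate 3 or day 7 replicate 1, 3 or 4 and under total signal scaling (-0.94, adjusted p = 0.0617), and not made on its other probe (-0.47, adjusted p = 0.322). Acta2, the actin of myofibroblasts and smooth muscle, read -0.61, -0.98, -0.50 and -0.98 in sham and -0.97, -1.72, -1.45 and -1.37 at day 7. Its groups overlapped, it did not pass (-0.61, adjusted p = 0.0761), and it was below day 3 (-1.24, adjusted p = 0.00285).

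Of 23 genes of the TGF-beta and BMP pathway 2 rose and 3 fell, beside the 8.21% and 10.6% of all genes. Tgfb1, the cytokine most tied to fibrosis, was not called (0.10, adjusted p = 0.712). Tgfb3 rose by 1.20 ± 0.28 SE (adjusted p = 0.0139), a call lost with normexp without low spots (0.44, adjusted p = 0.175), and with normexp on all spots its sign turned (-0.04). Ccn2, connective tissue growth factor and a target of TGF-beta, read -0.68, -0.26, -1.19 and -1.47 in sham and -1.97, -3.42, -3.04 and -2.93 at day 7. It was lower in every injured rat, by -1.94 ± 0.34 SE (adjusted p = 0.00332), and below day 3 as well (-1.22, adjusted p = 0.0186). Grem1 (chr3:99600383-99600442, rn4), a secreted antagonist of BMPs, read -0.14, -1.65, -1.21 and -1.13 in sham and 0.96, 1.23, 0.48 and 1.03 at day 7. It was 1.96 ± 0.41 SE above sham (adjusted p = 0.00789) and 1.94 above day 3 (adjusted p = 0.00568).

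Growth and patterning signals were mixed, and their counts stand beside 8.21% of all genes higher and 10.6% lower. Among 22 Wnt, Notch and Hedgehog genes 4 rose and 2 fell. Dkk3, a secreted protein of stressed tubules, rose by 2.13 ± 0.40 SE (adjusted p = 0.0052), and the Notch ligand Jag1 by 1.42 ± 0.18 SE (adjusted p = 0.000757). Wnt5a fell by 1.64 (SE 0.27, adjusted p = 0.00255), with 2 day 7 arrays well above background. Among 26 growth factor genes 2 rose and 6 fell, and Igfbp4, which binds insulin-like growth factors, fell by 1.86 (SE 0.26, adjusted p = 0.0012). Of 15 endocrine and vasoactive genes 1 rose and 1 fell, and their median of -0.13 became 0.11 under total signal scaling.

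Cell cycle genes had fallen from day 3 but not to sham. Of 39 tested members 20 were above sham and none below, with a median of 1.29, or 1.13 with genes of dim sham signal at their bound. With normexp on all spots the median was -0.14 and 1 member passed as higher. Of the same 39, 37 were below day 3. Cdk1 (chr20:20043755-20043814, rn4), the kinase that starts mitosis, read -3.93, -3.82, -2.44 and -3.24 in sham and -1.08, -1.35, -0.63 and -1.95 at day 7. The groups were apart by 2.11 ± 0.33 SE (adjusted p = 0.00226), and day 7 was 2.30 below day 3 (-2.30, adjusted p = 0.00111). Cks2, a partner of Cdk1, was well above background on no sham array and at least 4.87-fold higher at day 7, and Top2a, the topoisomerase of dividing cells, at least 3.75-fold. Rrm2, which supplies nucleotides, rose by 2.69 ± 0.44 SE (adjusted p = 0.0026), and Pttg1, securin, by 2.64 ± 0.35 SE (adjusted p = 0.000839). Foxm1, a factor of mitotic genes, rose by 1.87 ± 0.23 SE (adjusted p = 0.000684), but not on its other probe (0.27, adjusted p = 0.626).

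Ccnd1, the cyclin of entry into the cycle, went the other way. It read 1.03, 1.05, 0.84 and -0.40 in sham and -0.42, -0.37, -0.92 and -1.13 at day 7. Sham replicate 4 lay among the injured rats, and the decrease of -1.34 ± 0.33 SE passed (adjusted p = 0.0169), as did that from day 3 (-1.17, adjusted p = 0.0202).

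Of 27 genes of cell cycle arrest and p53 3 were higher and 4 lower, beside the 8.21% and 10.6% of all genes, with a median of -0.03. Btg2, an antiproliferative target of p53, rose by 1.68 ± 0.28 SE (adjusted p = 0.0029) and Bax, which opens mitochondria in apoptosis, by 1.49 (adjusted p = 0.0177). Cdkn1a, the inhibitor p21, was not called on its brighter probe, at -0.20 (adjusted p = 0.524), and rose by 3.02 ± 0.39 SE (adjusted p = 0.000775) on the other. These probes lie at chr20:7385536-7385595 and chr20:7386596-7386655 in rn4, and which transcript each reads was not tested. Mdm2, which degrades p53, was not called (0.33, adjusted p = 0.218).

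Cell death genes rose in 6 of 21 cases and fell in 2, beside 8.21% and 10.6% of all genes. Bbc3, which encodes the apoptosis inducer PUMA, read -5.64, -2.17, -5.24 and -4.07 in sham, with 1 array well above background, and -0.65, -0.34, 0.17 and -1.05 at day 7. It was 3.81 ± 0.62 SE higher (adjusted p = 0.00256), and 4.51 without sham replicate 2, the 1 high sham array. Bcl2l11, the apoptosis inducer BIM, rose by 1.88 ± 0.40 SE (adjusted p = 0.00888), and was also above day 3 (1.27, adjusted p = 0.0314). Casp4, the inflammatory caspase, rose by 1.86 ± 0.27 SE (adjusted p = 0.00152) and Pycard, the adaptor of inflammasomes, by 1.5 ± 0.35 SE (adjusted p = 0.0127). The median of this list (0.59) turned negative with a stricter filter on dim probes (-0.15) and with normexp (-0.07 on all spots and -0.11 without low spots).

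Immediate early and AP-1 genes rose in 10 of 19 cases and none fell, with a median of 0.79. Jun read -0.47, -0.46, -0.35 and -0.51 in sham and 0.51, 0.50, 1.42 and 0.30 at day 7, higher in every rat by 1.13 ± 0.22 SE (adjusted p = 0.0062). Atf3, a stress factor, was well above background on 3 of 4 day 7 arrays and on no sham array, and at least 3.15-fold higher. Its values at day 7 were -1.43, -4.54, -0.29 and -2.99, with replicate 2 lowest. Fos was above background on the same numbers of arrays and at least 1.88-fold higher, but its call was lost with normexp without low spots (adjusted p = 0.217) and without sham replicate 1 or 2 or day 7 replicate 1 or 3. Egr1 rose by 1.72 ± 0.40 SE (adjusted p = 0.0139), and did not on its other probe (-0.05, adjusted p = 0.962). Ddit4l, an inhibitor of the growth kinase mTOR, lay outside these lists and rose by 3.27 ± 0.37 SE (adjusted p = 0.000427).

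Of 20 genes of the unfolded protein and heat shock responses Hspa1b, whose probe may also read its near-identical copy, rose by 1.25 ± 0.22 SE (adjusted p = 0.00324). Cryab, a small heat shock protein of the medulla, fell from 2.71, 3.03, 2.40 and 2.86 to 1.03, 1.20, 0.40 and 0.12, by 2.06 on the log2 scale (SE 0.29, adjusted p = 0.00122). Of 18 cholesterol synthesis genes 2 rose and 2 fell, beside 18.8% of all genes called either way, with a median of 0.35 that turned to -0.17 with normexp on all spots, and Hmgcs1 at 0.38 (adjusted p = 0.187).

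Endothelial markers were lower in 5 of 20 cases and none were higher, with a median of -0.39. Their summed level was 21.3 to 36.8 at day 7 and 33.8 to 42.5 in sham. Kdr, the receptor of the vessel growth factor Vegfa, read 3.49, 3.14, 3.56 and 3.39 in sham and 2.25, 2.18, 1.78 and 2.92 at day 7. Replicate 4 was nearest to sham and none overlapped, with a difference of -1.11 ± 0.23 SE (adjusted p = 0.00768). Vwf, the adhesion protein for platelets, fell from 1.1, 1.07, 0.92 and 0.93 to -0.55, -0.65, -1.32 and 0.17, by -1.59 ± 0.31 SE (adjusted p = 0.0062). Tek, the angiopoietin receptor, was at -1.29 (adjusted p = 0.00427) and Emcn, a sialomucin of capillaries, at -1.20 (adjusted p = 0.00468), neither detectably different from day 3.

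Robo4, a guidance receptor of vessels, was the fifth, at -0.72. It was named after its value was seen, and its call was lost when any of 5 arrays was left out, all but sham replicates 2 and 4 and day 7 replicate 4, and under total signal scaling (-0.49, adjusted p = 0.0923). The junction proteins Cdh5 and Pecam1 were not called, at -0.35 (adjusted p = 0.208) and -0.19 (adjusted p = 0.637).

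Podocyte genes, of the filter cells of the glomerulus, were lower in 4 of 14 cases and higher in 1, with a median of -0.59. Their summed level was 12.9 to 21.9 at day 7 and 22.5 to 29.7 in sham. Podxl, podocalyxin, read 3.54, 3.41, 3.55 and 3.45 in sham and 1.95, 1.87, 2.13 and 2.98 at day 7, at -1.26 ± 0.22 SE (adjusted p = 0.00316). Nphs1, nephrin of the filtration slit, was at -1.66 ± 0.30 SE (adjusted p = 0.00422). Both were highest in day 7 replicate 4, and endothelium also makes Podxl. The cell cycle inhibitor Cdkn1c was at -1.25 (adjusted p = 0.0193), lost without sham replicate 1 or day 7 replicate 1 or 3. The chloride channel protein Clic5, named after its value was seen, was at -1.0 and lost without day 7 replicate 1 (-0.88, adjusted p = 0.0539). The transcription factor Tcf21, which fibroblasts also express, was higher, at 1.04 (adjusted p = 0.0226), lost without sham replicate 1 or day 7 replicate 1 or 4 and with normexp without low spots (0.33, adjusted p = 0.162).

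Genes whose 4 day 7 arrays lay outside all 8 other arrays, and which passed against both groups in the same direction, had left the sham level newly or further. They were ranked among genes with a name, well above background on some sham and some day 7 array. Genes too dim on every sham array could thus not enter. The 6 that stood furthest above were Atp12a, Aqp4, C4a, Grem1, Hpgd and Tppp3. Hpgd (chr16:37420061-37420120, rn4), which inactivates prostaglandins, read -2.23, -2.25, -2.29 and -0.95 in sham and 0.09, 0.62, -0.03 and 0.43 at day 7. It was 2.21 ± 0.35 SE above sham (adjusted p = 0.00212) and 1.93 above day 3 (adjusted p = 0.00284). Tppp3, which binds microtubules, was 2.03 above sham (adjusted p = 0.0072) with 1 sham array well above background, and lost its call with normexp without low spots (0.58, adjusted p = 0.0536).

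Under the same conditions the 6 furthest below both groups were Gclm, Defb29, Wdr12, Nqo1, Tmem120a and Yeats2. Tmem120a, a membrane protein, read -1.40, -0.90, -0.72 and -1.21 in sham and -2.52, -2.04, -2.44 and -3.03 at day 7, against -0.90 ± 0.18 (SD, n = 4) at day 3. It was -1.45 ± 0.22 SE from sham (adjusted p = 0.00167) and -1.60 from day 3 (adjusted p = 0.000808). Defb29, a beta-defensin, was at -1.73 from sham (adjusted p = 0.0139), Wdr12, of ribosome assembly, at -1.67 (adjusted p = 0.00298), and Yeats2, a reader of histone marks, at -1.38 (adjusted p = 0.00329). At day 3 those 3 averaged -1.43 ± 0.71, -1.79 ± 0.31 and -2.38 ± 0.35 (SD, n = 4 each), beside sham arrays from -2.01 to -0.45, -1.75 to -1.22 and -2.58 to -2.09.

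Several large changes lay outside the lists. Ciart (chr2:190659555-190659616, rn4), a repressor of the circadian clock, read -1.31, -1.77, -1.03 and -1.15 in sham and -3.73, -6.24, -5.92 and -5.69 at day 7, with 1 day 7 array well above background. It differed by -4.08 ± 0.59 SE (adjusted p = 0.00131), and no label gives the hour at which the rats were killed. Acot12, which splits acetyl-CoA, was at -3.58 ± 0.55 SE (adjusted p = 0.0018). Cfap68, a ciliary protein, was at -3.69 ± 0.72 SE (adjusted p = 0.00583), or -3.02 without day 7 replicate 3, and at 0.03 (adjusted p = 0.964) on its other probe. Dynlrb2, a dynein light chain of cilia, was at least 7.17-fold higher and Ttc9 at least 5.80-fold, with no sham array well above background. Bcat1, which breaks down branched-chain amino acids, is a member of the dedifferentiated and regenerating tubule list. It was at least 1.40-fold higher, also with no sham array well above background. Bcat1 lost its call with normexp without low spots (adjusted p = 0.0631).

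In the other direction, Gja5, the connexin 40 of arterial endothelium and renin cells, read -0.96, -1.90, -1.38 and -1.0 in sham and was well above background on no day 7 array, at least 5.90-fold lower. Elfn1, which shapes synapses, was at least 5.45-fold lower, Tex36 at least 4.02-fold and C14h2orf73 at least 3.59-fold. In 5 genes different probes were called in opposite directions, and the brighter probe stands for the gene. Gucy1a1, of the nitric oxide receptor, was at -0.53 and 1.51 on its probes, Lix1l at -0.40 and 0.83, Nr2f6 at -0.59 and 0.62, Rpl17-ps16 at 0.49 and -1.83 and RT1-T24-1 at 0.84 and -0.81.

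The 4 injured rats were not alike, and in several lists replicates 1 and 3 lay furthest from sham. The median metabolic gene of the proximal tubule was -1.72 from the sham mean in replicate 1, -0.86 in replicate 2, -1.52 in replicate 3 and -0.48 in replicate 4. For transport genes these medians were -1.19, -0.41, -0.77 and -0.36. So replicates 1 and 3 stood further below sham than replicates 2 and 4 in both lists.

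Tubular injury genes showed the same rats at the far end, with medians of 1.46, 0.77, 1.74 and 0.60 above the sham mean in replicates 1 to 4. Dedifferentiation genes stood at 1.35, 0.47, 1.29 and 0.38, and cell cycle genes at 1.58, 1.31, 1.59 and 0.53. Macrophage genes stood at 1.06, 0.78, 0.97 and 0.46, so replicate 4 was nearest to sham in each of these lists and replicate 2 was nearer to it than 1 and 3. Fatty acid oxidation genes kept this order, at -0.47, -0.25, -0.58 and -0.24, as did complement genes, at 1.34, 0.99, 1.11 and 0.86. Some other lists did not. Principal cell genes stood at 0.75, 0.42, 0.48 and 0.74 and matrix genes at 1.16, 1.22, 0.99 and 0.66. Interferon genes, at 0.98, 0.25, 0.58 and 0.5, had replicates 1 and 3 furthest from sham but replicate 2 nearest. Endothelial genes were lowest in replicate 3, at -0.52, -0.56, -0.68 and -0.29, and podocyte genes in replicates 1 and 2, at -0.99, -1.01, -0.17 and -0.01. Replicates 1 and 4 shared slide 3, replicate 2 lay on slide 1 and replicate 3 on slide 2, and the part of the slide in the order was not tested. Over all genes called higher the medians of the 4 rats were 1.04, 0.82, 1.0 and 0.79, and over those called lower -0.88, -0.75, -0.93 and -0.73.

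**Figure D4:**
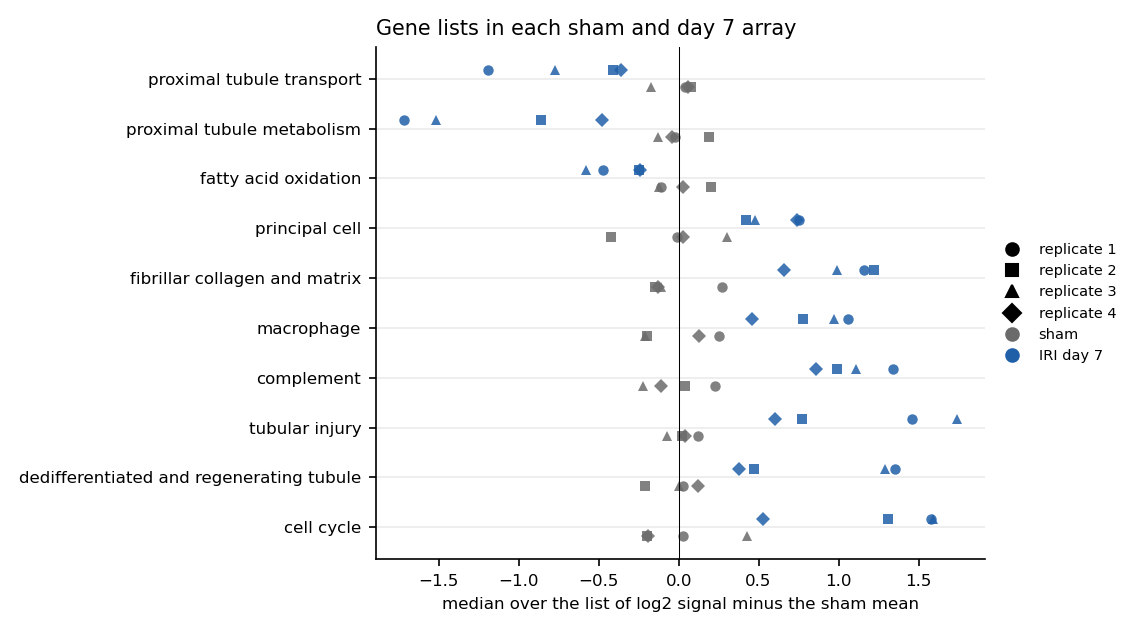
Median over each of 10 gene lists of the log2 signal minus the sham mean of the gene (horizontal axis), for each of the 4 sham (grey) and 4 day 7 (blue) arrays, with the replicate number as the symbol. Circles and triangles, replicates 1 and 3 of day 7, lie furthest from 0 in the proximal tubule and tubular injury lists (-1.72 and -1.52, and 1.46 and 1.74 for metabolism and injury), and the diamond, replicate 4, lies nearest.

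Markers of tissue beside the kidney were checked because fat, adrenal gland or blood can be taken along with it. Of 6 adrenal genes 1 fell, the dopamine-making enzyme Th (-0.91, adjusted p = 0.0286), lost without sham replicate 1, 3 or 4 or day 7 replicate 3 and under total signal scaling (-0.68, adjusted p = 0.0849), and the summed level was 1.51 to 2.48 at day 7 and 2.24 to 3.30 in sham. Of 5 urothelial genes none passed. Of 7 blood and skeletal muscle genes the red cell genes Alas2 (-1.71, adjusted p = 0.0197) and Slc4a1 fell and the muscle actin Acta1 rose (0.52, adjusted p = 0.0438). Alas2 was lost without day 7 replicate 1 (-1.54, adjusted p = 0.0578), and Acta1 kept its call only without sham replicate 2 or day 7 replicate 2. The summed level of the blood and muscle genes was 5.57 to 7.05 at day 7 and 6.62 to 13.3 in sham.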

How the data were processed

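Per the labels, kidney RNA came from the RNeasy Micro Kit and carried the dye Cy3, and the labelling kit named is one for DNA. Per the file headers, Agilent Feature Extraction 9.5.1.1 made the processed signal, a background-subtracted intensity, and placed probes on rn4. The value table that the authors deposited holds log2 values. Within each array they followed the scanner values after scaling to the 75th percentile and centring on each probe (lowest correlation 0.998). A correlation does not see a shift of a whole array, so it cannot show which scaling the authors used. The median day 7 difference from sham was 0.01 in their table and -0.07 in the main fit. The flags for spots well above background, per the file headers, are 0 or 1.

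The log2 processed signal minus the 75th percentile was fitted with limma 3.58.1 in R 4.3.3 as 1 mean per group over 12 arrays, with Benjamini-Hochberg adjustment over 18510 genes (threshold 0.05). A probe had to be well above background on all arrays of 1 group, and the brightest probe stood for a gene. Other values came from Python 3.11.15 and scipy 1.17.1. The fit was also run on simulated data, with an outcome not reported here. That simulation drew independent normal noise without slide, scan or background effects, so it does not bear on those.

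Members, 43 gene lists and the rule for naming genes were chosen with earlier results of these data known. The rule took the 12 largest changes each way, the first 3 and the 4 most changed called genes of each list with any 5 or fewer exceptions, the 6 genes each way outside all other arrays, the 4 largest bounds each way, and genes with opposing probes; some genes it named are not reported here. The 12 largest changes and the 6 genes were taken among genes well above background on some array of both sham and day 7. Alternatives were the background correction, scaling, filter, probe summary, slide, scan and replicate number as a block, and each array left out. Promoters are RefSeq's on GRCr8.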

Additional observations from a re-analysis of the deposited data

Results flagged for a closer look

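In 374 groups of 4 arrays, of the genes named here, the array furthest from the rest was set against Dixon's critical value for an outlier, which chance passes in about 1 of 20 groups. 19 groups passed. Of the sham arrays, replicate 2 was low for Bcl2l11 (-4.84), Cdkn1c (-0.30), Gucy1a1 (1.47) and Pkm (3.20). Sham replicate 3 was low for Cd68 (-5.22) and Gclc (1.5) and high for Gpnmb (-5.44), which was below background there. Sham replicate 4 was low for Ccnd1 (-0.40) and Psmb8 (-4.42) and high for Hpgd (-0.95). Sham replicate 1 was low for Pex11a (2.01) and Rpl17-ps16 (3.23) and high for Pfkp (-1.22).

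At day 7, replicate 3 was low for Cyp4a1 (1.67), Igfbp4 (-0.88) and Th (-2.07). Replicate 2 was low for Casp4 (0.24) and high for Hnmt (-3.55), and replicate 4 was high for Nphs1 (0.0046, against -1.38 to -1.19 in the other injured rats).

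The effect against sham differed in direction between day 3 and day 7 for 4 genes of the distal nephron, by the fitted difference of the days. Calb1 was at -5.28 at day 3 and 1.58 at day 7, a difference of 6.86. Hsd11b2 was at -1.31 and 1.30 (2.61), Kcnj1 at -1.85 and 0.83 (2.67) and Sostdc1 at -0.64 and 0.78 (1.42). Both effects share the sham arrays.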

How the results depend on the processing

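Of 151 called genes named here, 19 kept their call under every alternative, 116 under all but the normexp correction with all spots, and 119 when leaving out single arrays was set aside too. With normexp on all spots 91 genes passed against sham and 159 against day 3, while normexp without spots below their local background gave 3511 and 7856. Fitting only the compared groups gave 2087 genes against sham. Leaving out 1 array gave 2042 to 3476 against sham and 3475 to 6123 against day 3, and ratios of the unscaled 75th percentile of 1.38 to 1.64, each with an exact permutation p of 0.0571, the smallest possible. Same-numbered arrays did not deviate together (r -0.330 to 0.142), and a replicate block gave 2464 genes against sham and 4692 against day 3. Without a filter 2538 genes passed against sham, with slide as a block 3331 and with scan 3214.

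The sign turned, with the cause not tested, under normexp for Fos (-0.27), Tcf21 (-0.01), Tgfb3 (-0.04), Tppp3 (-0.0038) and Trpv6 (-0.18), and for the medians of proteases (-0.13), class II genes (-0.10), B cells (-0.07), dedifferentiation (-0.03), cell cycle (-0.14), cytokines (-0.08), cell death (-0.07) and cholesterol synthesis (-0.17). Without low spots those of class II genes (-0.04), B cells (-0.08) and cell death (-0.11) turned, and with the stricter filter class II genes (-0.31) and cell death (-0.15). Averaging probes turned Gucy1a1 (0.49), Lix1l (0.21), Nr2f6 (0.02) and Rpl17-ps16 (-0.67), whose probes oppose each other. Endocrine genes turned under total signal scaling (0.11), without sham replicate 1 (0.05) and without day 7 replicate 1 (0.0033), in a range of -0.14 to 0.05, and within slides 1 (0.17) and 2 (0.09). Within slide 2 podocyte (0.02), class II (-0.20) and urothelial genes (0.05) turned, and within slide 3 class II (-0.11) and B cell genes (-0.39).

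Dim probes limit the values: where a whole group was too dim for a called gene, only a bound is given, and below background the levels of an array have no order. The number of arrays, 4 a group, limits the precision.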
